A study of Arabidopsis thaliana with 15 samples.

Results

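The comparison described here is the gyf2 single mutant of Arabidopsis thaliana against wild type (WT, the Col-0 accession). Its members are the 3 libraries titled gyf2 and the 3 titled WT, 6 of the 15 libraries of the series. The other libraries are 3 each of gyf1, gyf1 gyf2-1 and gyf1 gyf2-2, and they enter where a level in gyf2 is set beside them. All plants were untreated whole seedlings, grown for 1 week on half-strength Murashige and Skoog medium containing 1% sucrose, and RNA came from about 100 mg of tissue. The labels give neither the locus mutated in gyf2, nor its allele, nor whether gyf2-1 and gyf2-2 are alleles or lines. The design text names duplicates, but each genotype had 3 libraries. Whether the 3 libraries of a genotype were grown apart is not stated, and p-values cover no more than the spread among these libraries.

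GYF domains are small adaptor folds that bind proline-rich stretches of other proteins. In animals, GYF proteins of the GIGYF type join cap-binding and RNA-binding partners to repress translation and promote decay of chosen mRNAs. Plants have several genes with the domain, some of them known from work on virus susceptibility and immune receptor levels. Many of the transcripts described below belong to the early stress class, whose mRNAs are short-lived and rise within minutes of wounding, touch or contact with microbes, and to the low-energy class, whose mRNAs rise when sugar runs short.

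The WT and gyf2 libraries held 18913912 to 24681140 counts. WT replicate 1 and gyf2 replicate 3 stood apart from the other libraries of their genotypes. On the second principal component WT replicate 1 lay at 28.4 against 0.68 and 0.72, and gyf2 replicate 3 at −17.88 against 0.31 and −4.09. Markers of both organ systems were present. The summed level of 19 tested root markers was 2433 to 2878 CPM (counts per 1000000 of a library's effective total) in WT and 2797 to 3160 in gyf2. For 49 photosynthesis genes the sum was 105014 to 115087 CPM in WT and 93257 to 107114 in gyf2, and in both lists the ranges overlapped. The 9 stomatal lineage markers summed to 86.4 to 89.5 CPM in WT and 72.7 to 76.4 in gyf2, ranges that did not overlap. None of the 8 seed markers passed the filter on low counts, with 2 to 8 counts per library in WT and 4 to 11 in gyf2. In RNA from whole seedlings, fewer cells of a type and less RNA per cell cannot be told apart.

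Of 20721 genes with enough counts, 519 (2.5%) were called in gyf2 against WT by edgeR's quasi-likelihood test at a Benjamini-Hochberg adjusted p below 0.05. Most called genes were higher in the mutant: 412 (1.99% of those tested) were called higher and 107 (0.516%) lower. The log2 fold change (gyf2 minus WT, SE after ±) had a median of 0.56 among the genes called higher, −0.43 among those called lower and −0.01 over all tested genes. Among called genes it passed 1 for 93 and lay below −1 for 13. In every called gene the 3 gyf2 libraries lay on one side of the 3 WT libraries, which was also the case for 18.0% of all tested genes. The lower calls depended most on single libraries. They numbered 71 without WT replicate 1, 69 without WT replicate 3, 49 without gyf2 replicate 2 and 59 without gyf2 replicate 3, while the higher calls stayed between 300 and 375 in all such fits. Of the 412 genes called higher, 246 were called in each of the 6 fits that left out 1 library, and of the 107 called lower, 25 were.

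**Figure D1:**
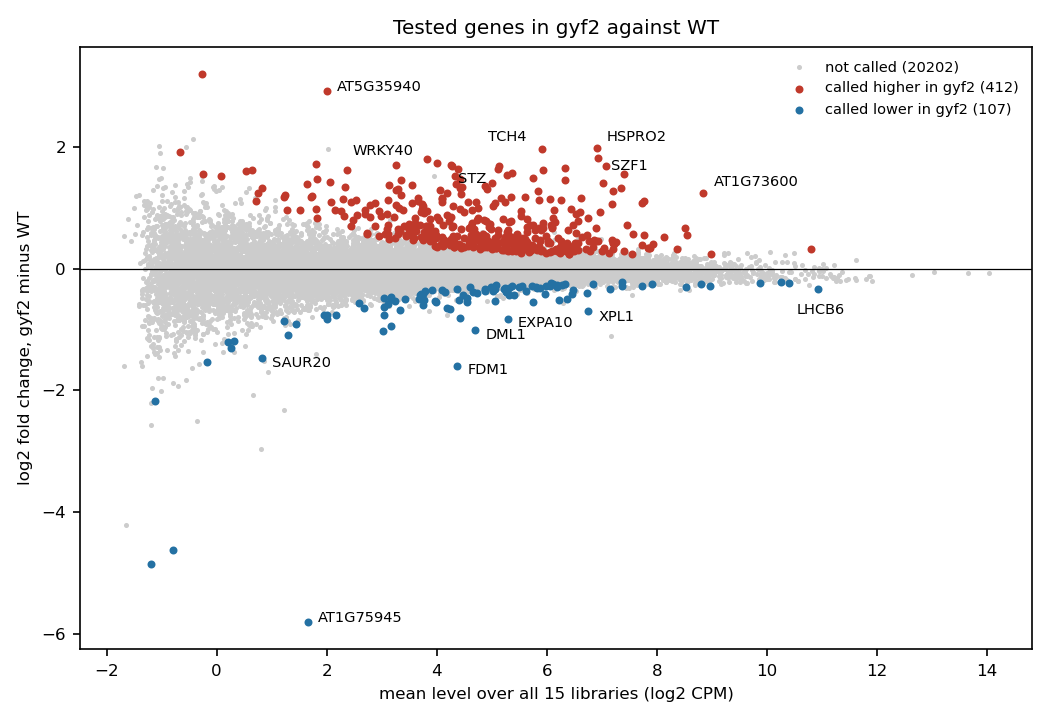
Log2 fold change of each tested gene (gyf2 minus WT, vertical axis) against its mean level over all 15 libraries (log2 CPM, horizontal axis). Red points are the 412 genes called higher in gyf2 and blue points the 107 called lower, and most red points lie between 0 and 2 at every level.

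The targeted gene cannot be checked by name, so all 12 tested genes annotated with a GYF domain were examined. None was called by edgeR, with 2 at an unadjusted p below 0.05 and 1 called by DESeq2. That gene was AT1G27430 (chromosome 1, 9520825 to 9527280, TAIR10), which had 37.9, 48.4 and 45.4 CPM in WT and 32.1, 36.2 and 30.6 in gyf2. All 3 gyf2 libraries lay below all 3 WT libraries, and its log2 fold change was −0.41 ± 0.12, edgeR adjusted p = 0.0686. Without WT replicate 1 edgeR called it lower (−0.50, adjusted p = 0.0188), and without any other single library it was not called. Its level was 46.3 to 49.1 CPM in gyf1, and the difference between gyf2 and gyf1 was called (−0.53, edgeR adjusted p = 0.0239). It was not alone in this, as 2 of the 12 GYF-domain genes were called in gyf2 against gyf1. Among all tested genes 0.96% were called in that comparison. Over the other 11 GYF-domain genes the log2 fold change was between −0.38 and 0.24. AT1G24300 had 33.7, 49.6 and 44.6 CPM in WT and 46.3, 45.0 and 52.8 in gyf2 and AT5G42950 had 61.2, 80.1 and 75.3 CPM in WT and 78.2, 82.9 and 91.7 in gyf2, and neither set of libraries separated from WT.

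The 15 largest rises included members of the sugar starvation, WRKY, ethylene response factor and zinc-finger lists described below. Lists and their members were chosen with earlier results of these data known, so their shares of calls are descriptive only. HSPRO2, whose protein binds the energy-sensing kinase SnRK1, had 36.7, 34.3 and 32.6 CPM in WT and 155, 136 and 119 in gyf2. Every gyf2 library was well above every WT library, and the log2 fold change was 1.98 ± 0.10, edgeR adjusted p = 6.45e-13. SZF1, a tandem CCCH zinc-finger protein of the salt and immune response, had 48.2, 41.5 and 45.2 CPM in WT and 176, 147 and 152 in gyf2 (1.82 ± 0.08, edgeR adjusted p = 7.64e-16). TCH4, a touch-induced xyloglucan endotransglucosylase that remodels the cell wall, had 20.2, 15.0 and 15.6 CPM in WT and 81.8, 61.8 and 53.5 in gyf2 (1.95 ± 0.17, edgeR adjusted p = 1.42e-05). Every gyf2 library of both genes was likewise above every WT library.

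WRKY40, a transcription factor that damps defence gene expression, had 5.16, 4.50 and 5.10 CPM in WT and 20.2, 16.5 and 14.4 in gyf2 (1.79 ± 0.13, edgeR adjusted p = 4.97e-11). ERF6, an ethylene response factor acting below MAP kinases, had 8.40, 7.46 and 8.86 CPM in WT and 27.7, 25.4 and 26.9 in gyf2 (1.70 ± 0.12, edgeR adjusted p = 7.01e-11). STZ, the zinc-finger repressor also called ZAT10, had 17.4, 17.4 and 14.6 CPM in WT and 57.6, 52.1 and 48.6 in gyf2 (1.68 ± 0.11, edgeR adjusted p = 2.58e-10). All 3 regulators were about 3-fold higher in gyf2, with folds of 3.47, 3.24 and 3.20. The largest rise among genes with a mean of at least 1 log2 CPM was AT5G35940, annotated as a jacalin-related lectin and expressed at low levels, which had 0.892, 1.05 and 0.425 CPM in WT and 5.89, 5.45 and 6.78 in gyf2 (2.91 ± 0.25, edgeR adjusted p = 1.69e-09). Its level in gyf1 was 4.28 to 5.96 CPM, which overlapped the gyf2 libraries.

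Others among the 15 largest rises were AT1G07135 (a glycine-rich protein), AT1G33055, AT5G66650 (annotated as a mitochondrial calcium uniporter), AT4G29780, DIC2 (a mitochondrial dicarboxylate carrier), AT1G80440 (a kelch-repeat F-box protein), and AT2G20670 and AT4G32480. The latter pair belong to the PDDEXK-like family, formerly DUF506. Their log2 fold changes were between 1.63 and 1.73. All 15 stayed called whichever single WT or gyf2 library was left out.

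**Figure D2:**
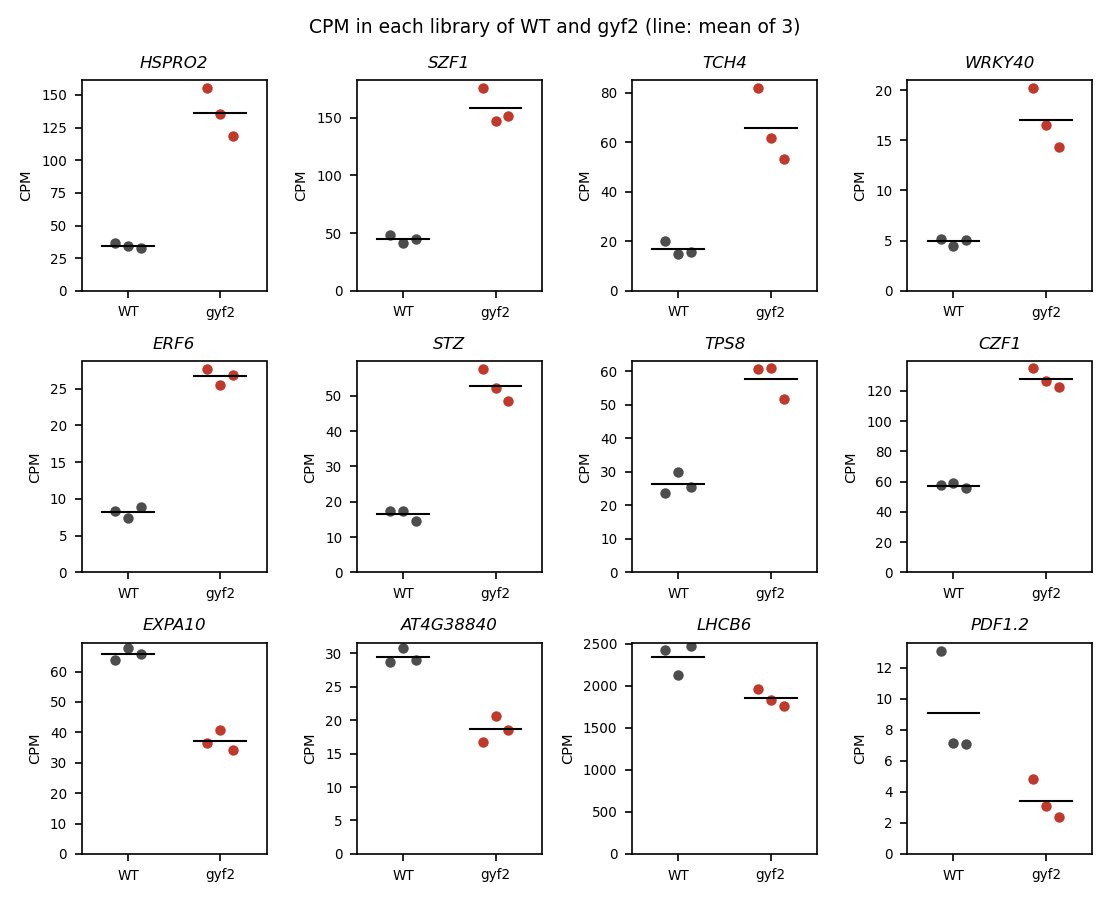
Level in CPM (vertical axes, from 0) of 12 genes in each library of WT (grey) and gyf2 (red), with a line at the mean of 3. The first 8 genes are higher in every gyf2 library, EXPA10, AT4G38840 and LHCB6 are lower in every one, and PDF1.2 is lower in every one without passing the test.

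The 250 bases before the annotated start were searched on both strands for short motifs in 20641 tested nuclear genes whose position in the RefSeq TAIR10.1 annotation matched the files. The W-box (TTGACC or TTGACT), the element that WRKY factors bind, occurred in 43.2% of the windows of genes called higher, 24.3% of those called lower and 28.5% of all tested. The TATCCA element occurred in 21.4%, 14.0% and 14.0%. The rapid stress response element CGCGTT occurred in 5.83%, 0.93% and 2.8%. Shares for the ethylene-linked GCC-box (GCCGCC) were 2.67%, 1.87% and 1.97%, for the G-box (CACGTG) 7.04%, 11.2% and 7.18%, and for the auxin response element (TGTCTC) 10.7%, 10.3% and 10.7%. No one of these motifs contains another. By size of rise, the W-box share was 40.0% in ranks 1 to 50, 48.0% in ranks 51 to 150 and 42.0% in ranks 151 to 412. Such a match is a description of letters and not a binding site.

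Windows of 5 genes from the leading groups are shown because their W-boxes, alone or with a GCC-box, illustrate the motif whose share differed most in percentage points, and that of HSPRO2 because it held neither. They are written 5′ to 3′ on the gene's strand, from RefSeq TAIR10.1, with W-box and GCC-box letters, as read on either strand, in capitals. SZF1 (chr3:20775970-20776219, plus strand) held 3 W-boxes, the nearest starting 50 bases before the gene. WRKY33 (chr2:16107985-16108234, plus strand) held 2 W-boxes and a GCC-box. AT1G80440 (chr1:30241202-30241451, plus strand), TCH4 (chr5:23308681-23308930, minus strand) and MYB77 (chr3:18559327-18559576, minus strand) held 1 W-box each. Windows not printed included those of WRKY40, STZ, ERF6, ERF104, RHL41 and CAF1a, all called higher, which held no W-box. That of ERF5, called higher, held 1, and that of FDM1, called lower, held 2. HSPRO2 is at chr2:16702337-16702586 on the minus strand.
SZF1: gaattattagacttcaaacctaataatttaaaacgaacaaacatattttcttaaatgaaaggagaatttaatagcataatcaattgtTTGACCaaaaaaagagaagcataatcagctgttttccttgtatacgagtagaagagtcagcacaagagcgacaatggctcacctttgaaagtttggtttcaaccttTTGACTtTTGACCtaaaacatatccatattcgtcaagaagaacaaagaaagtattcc
WRKY33: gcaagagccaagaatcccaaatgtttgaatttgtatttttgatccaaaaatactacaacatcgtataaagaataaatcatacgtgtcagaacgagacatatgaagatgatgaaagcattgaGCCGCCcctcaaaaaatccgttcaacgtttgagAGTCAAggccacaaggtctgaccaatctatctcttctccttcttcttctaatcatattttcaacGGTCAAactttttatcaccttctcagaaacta
AT1G80440: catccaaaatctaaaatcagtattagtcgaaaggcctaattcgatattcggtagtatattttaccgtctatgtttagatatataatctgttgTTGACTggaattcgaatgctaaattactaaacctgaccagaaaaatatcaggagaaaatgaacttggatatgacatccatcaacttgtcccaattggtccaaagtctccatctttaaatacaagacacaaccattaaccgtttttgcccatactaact
TCH4: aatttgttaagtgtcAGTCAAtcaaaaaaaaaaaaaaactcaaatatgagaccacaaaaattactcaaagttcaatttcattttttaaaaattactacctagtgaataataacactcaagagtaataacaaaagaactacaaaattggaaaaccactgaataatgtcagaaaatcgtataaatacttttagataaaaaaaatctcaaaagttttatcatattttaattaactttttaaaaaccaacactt
MYB77: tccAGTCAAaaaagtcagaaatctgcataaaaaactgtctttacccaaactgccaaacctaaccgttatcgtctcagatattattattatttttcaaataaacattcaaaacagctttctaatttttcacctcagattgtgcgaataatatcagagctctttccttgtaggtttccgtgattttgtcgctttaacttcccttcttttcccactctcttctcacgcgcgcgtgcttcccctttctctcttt
HSPRO2: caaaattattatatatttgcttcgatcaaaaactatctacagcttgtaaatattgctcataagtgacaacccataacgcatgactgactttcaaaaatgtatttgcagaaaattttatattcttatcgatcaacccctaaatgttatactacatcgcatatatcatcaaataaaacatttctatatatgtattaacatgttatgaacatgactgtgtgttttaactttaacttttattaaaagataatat

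**Figure D3:**
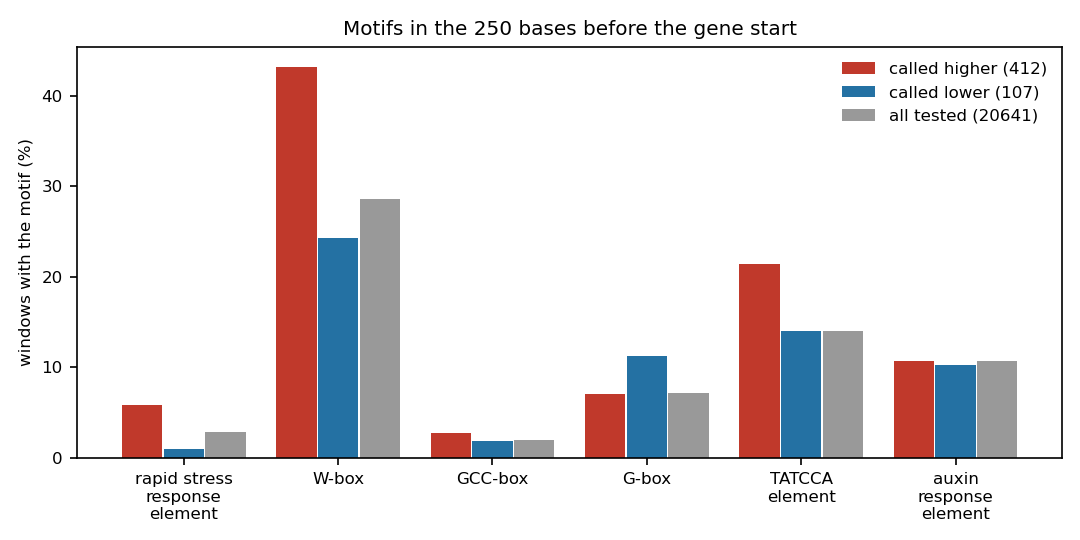
Share of windows (percent, vertical axis) that hold each motif at least once within 250 bases before the gene start, for genes called higher in gyf2 (red, 412 windows), called lower (blue, 107) and all tested (grey, 20641). The W-box bar is 43.2% for genes called higher against 28.5% for all tested.

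The genes called higher also differed in structure. Of 411 protein-coding genes called higher, 34.6% had a single annotated exon, against 21.4% of 103 called lower and 13.5% of the 20219 tested genes with annotated exons. The median number of exons, in the transcript with most, was 2, 3 and 5 in the same order. Median summed exon length was 1784, 1370 and 1772 bases, so the exons of genes called higher were together about as long as those of all tested genes. Length with introns was not compared. Their median level was 5.00 log2 CPM against 4.06 over all tested genes.

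Genes that mark sugar starvation gave the largest share of calls among lists of more than 5 tested genes. As the lists were chosen with earlier results known, this rank is no independent support. Of 22 tested members, 12 were called higher and 0 lower, against 1.99% of all tested genes called higher, and the median log2 fold change was 0.49. Apart from HSPRO2, AT2G20670, AT1G80440, AT4G32480 and AT3G15450 rose most. AT1G80440, whose protein targets phenylalanine ammonia-lyase and type-B response regulators for turnover, had 25.4, 23.2 and 25.3 CPM in WT and 81.8, 72.4 and 76.3 in gyf2 (1.64 ± 0.09, edgeR adjusted p = 3.28e-13). AT4G32480 had 9.90, 9.96 and 10.8 CPM in WT and 34.6, 32.8 and 27.9 in gyf2 (1.64 ± 0.09, edgeR adjusted p = 5.77e-13). AT3G15450, annotated as an aluminium-induced protein and a common marker of dark treatment, had 49.3, 47.1 and 57.4 CPM in WT and 152, 161 and 136 in gyf2 (1.54 ± 0.10, edgeR adjusted p = 1.57e-10). In all 3 genes every gyf2 library was above every WT library.

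Smaller rises were called in the dark-inducible genes SEN1 (0.99) and DIN10 (0.66), the dormancy-associated genes DYL1 (0.94) and AT2G33830 (0.42), the growth gene EXO (0.82) and the beta-amylase BMY3 (0.34). These 6 were picked to show the range of the list after their values were seen. The list was not uniform. ASN1, the asparagine synthetase gene used as the classical dark marker, had 35.0, 37.4 and 40.7 CPM in WT and 34.0, 24.8 and 36.4 in gyf2 and was not called (−0.24 ± 0.13, edgeR adjusted p = 0.451). DIN2, DIN4 and DIN9 were likewise not called, with log2 fold changes of −0.20, 0.06 and −0.34. Counts of called members stayed at 12 in every fit that left out 1 library, and at 11 without both WT replicate 1 and gyf2 replicate 3.

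Trehalose phosphate synthases fell into called and uncalled members. The test called 4 of the 8 higher and 0 lower, against 1.99% of all tested genes called higher. The 4 were TPS8, TPS9, TPS10 and TPS11. TPS8 had 23.7, 29.9 and 25.5 CPM in WT and 60.7, 61.0 and 51.8 in gyf2 (1.13 ± 0.10, edgeR adjusted p = 2.29e-08) and TPS11 had 16.3, 15.3 and 16.8 CPM in WT and 38.9, 33.9 and 30.6 in gyf2 (1.098 ± 0.10, edgeR adjusted p = 1.76e-09). TPS9 and TPS10 rose by 0.68 and 0.41. TPS1, the active synthase, had 55.9, 62.4 and 58.3 CPM in WT and 51.7, 59.3 and 62.2 in gyf2 (−0.03 ± 0.08, edgeR adjusted p = 0.897), and TPS5, TPS6 (listed as ATTPS6) and TPS7 were not called.

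The C and S1 group bZIP factors, which act below SnRK1, gave 1 call in each direction among 9. Over all tested genes 1.99% were called higher and 0.516% lower. bZIP1 had 7.60, 6.26 and 6.74 CPM in WT and 12.5, 16.0 and 11.1 in gyf2 (0.94 ± 0.14, edgeR adjusted p = 2.92e-05). GBF6, also called bZIP11, whose translation is repressed by sucrose, had 29.8, 29.1 and 29.7 CPM in WT and 22.4, 24.6 and 20.6 in gyf2 (−0.39 ± 0.10, edgeR adjusted p = 0.0281), and the call was lost without WT replicate 1, 2 or 3 or gyf2 replicate 1 or 3 (adjusted p up to 0.16). The other 7 were not called, with log2 fold changes between −0.40 and 0.26. Without gyf2 replicate 3 BZO2H3 was called higher (0.33, edgeR adjusted p = 0.0282), so the list then had 2 higher calls and 0 lower.

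Stress-related ethylene response factors were mostly called higher where called, with 8 of 19 tested members called higher and 1 lower. The shares over all tested genes were 1.99% and 0.516%, and the list's median log2 fold change was 0.72. After ERF6, the calls included ERF104, ERF5 and ERF-1. ERF-1 had 18.6, 16.6 and 20.5 CPM in WT and 39.9, 39.5 and 38.6 in gyf2 (1.08 ± 0.10, edgeR adjusted p = 3.07e-09). ERF104, a substrate of the MAP kinase MPK6, had 22.8, 20.8 and 18.5 CPM in WT and 67.1, 58.2 and 58.3 in gyf2 (1.56 ± 0.12, edgeR adjusted p = 1.71e-08). ERF5 had 13.1, 10.6 and 8.86 CPM in WT and 30.3, 26.9 and 22.8 in gyf2 (1.29 ± 0.12, edgeR adjusted p = 1.91e-08). The gyf2 and WT libraries of these genes did not overlap. ERF13, ERF2, ERF11 and ERF4 were the other members called higher. For ERF11 the call was lost without WT replicate 2 or 3 or gyf2 replicate 1 (adjusted p up to 0.118) and for ERF13 the call was lost without WT replicate 2 (adjusted p up to 0.0514). As neighbours, 2 members sat next to each other on chromosome 4 (ERF6 and ERF-1) and 2 on chromosome 5 (ERF2 and ERF5), and all 4 were called higher. The 1 member called lower was ORA59, the factor that joins jasmonate and ethylene signals at defensin genes, with 10.5, 9.76 and 14.1 CPM in WT and 8.96, 7.42 and 6.39 in gyf2 (−0.58 ± 0.16, edgeR adjusted p = 0.0392), and the call was lost without WT replicate 3 or gyf2 replicate 2 or 3 (adjusted p up to 0.244).

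PDF1 defensins, the best-known targets of ORA59, were lower in the means but not called. Of 4 tested members edgeR called 0, with 3 at an unadjusted p below 0.05 and 1 called lower by DESeq2. PDF1.2 had 13.0, 7.16 and 7.06 CPM in WT and 4.84, 3.06 and 2.36 in gyf2 (−1.40 ± 0.38, edgeR adjusted p = 0.0801). WT replicate 1 was the highest library for all 4 genes, and the near-identical sequences of PDF1.2, PDF1.2b and PDF1.2c make their separate counts uncertain. In the jasmonate lists, JAZ1 was the 1 called member of 10 JAZ repressors, against 1.99% of all tested genes called higher. JAZ1 had 18.8, 17.7 and 19.3 CPM in WT and 26.4, 25.4 and 25.2 in gyf2 (0.46 ± 0.08, edgeR adjusted p = 0.000509). LOX4, a lipoxygenase of jasmonate synthesis, was the 1 called of 8 synthesis and output genes (0.66 ± 0.16, edgeR adjusted p = 0.0156), and the call was lost without WT replicate 1 or 2 or gyf2 replicate 3 (adjusted p up to 0.113).

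Ethylene synthesis genes, a family chosen after the values were seen, showed 3 of 7 tested ACC synthases called higher and 0 lower. The share called higher over all tested genes was 1.99%. ACS6, a MAP kinase substrate, had 27.9, 21.6 and 21.9 CPM in WT and 59.0, 52.0 and 50.2 in gyf2 (1.17 ± 0.10, edgeR adjusted p = 1.35e-08). ACS7 had 15.7, 15.6 and 12.3 CPM in WT and 29.9, 29.0 and 26.4 in gyf2 (0.97 ± 0.09, edgeR adjusted p = 1.81e-08) and ACS11 had 4.27, 3.30 and 4.46 CPM in WT and 10.8, 9.03 and 7.86 in gyf2 (1.21 ± 0.17, edgeR adjusted p = 2.06e-05). ACS2, ACS4, ACS5 and ACS8 were expressed at lower levels and were not called, with log2 fold changes of 0.03, −0.84, 0.38 and 0.91.

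WRKY transcription factors, many of them regulators of immunity, had 9 of 63 tested members called higher and 0 lower, with a median of 0.15. The share called higher over all tested genes was 1.99%. WRKY33, needed for camalexin synthesis, had 32.9, 33.6 and 36.7 CPM in WT and 105, 83.7 and 94.1 in gyf2 (1.46 ± 0.09, edgeR adjusted p = 7.36e-13). WRKY22 had 9.86, 9.31 and 9.45 CPM in WT and 22.6, 22.6 and 18.9 in gyf2 (1.16 ± 0.11, edgeR adjusted p = 9.23e-09) and WRKY15 had 30.9, 28.8 and 30.4 CPM in WT and 42.7, 40.1 and 42.7 in gyf2 (0.48 ± 0.08, edgeR adjusted p = 0.000166). The gyf2 level of WRKY33 was 2.74 times that of WT, and that of WRKY15 was 1.39 times. WRKY53, WRKY18, WRKY46, WRKY70 and WRKY11 were also called, between 0.31 and 0.72. Of these WRKY46, WRKY70 and WRKY11 were not called in every fit with 1 library left out. For WRKY46 the call was lost without WT replicate 2 or 3 or gyf2 replicate 1 (adjusted p up to 0.132), for WRKY70 the call was lost without gyf2 replicate 1 or 3 (adjusted p up to 0.069) and for WRKY11 the call was lost without WT replicate 2 or 3 or gyf2 replicate 1 or 2 (adjusted p up to 0.265). The count of called members was 6 without gyf2 replicate 1 and 7 to 9 without any other single library.

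Zinc-finger repressors of the ZAT and AZF type had 4 of 8 tested members called higher, against 1.99% of all tested genes. Their median was 0.77 and all 8 were above 0. ZAT7 had 4.22, 3.55 and 3.45 CPM in WT and 10.0, 10.07 and 9.19 in gyf2 (1.38 ± 0.14, edgeR adjusted p = 6.65e-08). ZAT6 had 11.5, 9.81 and 9.66 CPM in WT and 25.5, 21.3 and 21.2 in gyf2 (1.13 ± 0.13, edgeR adjusted p = 9.93e-07). RHL41, also called ZAT12 and known from high-light stress, had 6.29, 5.86 and 4.94 CPM in WT and 13.9, 10.6 and 10.5 in gyf2 (1.04 ± 0.15, edgeR adjusted p = 2.44e-05). The ZAT7 gene lies beside AT3G46080, a related gene that was also called higher (1.24), and the call was lost without WT replicate 1 or 2 or gyf2 replicate 1 or 2 (adjusted p up to 0.0978). The AZF genes, listed as ZF1, ZF2 and ZF3, were not called by edgeR, with 0.50, 0.38 and 0.18. For ZF1 the edgeR adjusted p was 0.0508, and DESeq2 called 5 members of the list higher.

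Among tandem CCCH zinc-finger genes 3 of 5 tested were called higher, against 1.99% of all tested genes. CZF1, the closest relative of SZF1, had 58.0, 58.8 and 55.5 CPM in WT and 135, 126 and 122.6 in gyf2 (1.16 ± 0.07, edgeR adjusted p = 1.67e-12). ATCTH had 31.3, 27.7 and 26.3 CPM in WT and 55.0, 54.5 and 44.9 in gyf2 (0.85 ± 0.10, edgeR adjusted p = 1.99e-06). OZF1 and OZF2 had log2 fold changes of 0.42 and 0.33 and were not called. Proteins of this kind can bind mRNA, and CAF1 deadenylases shorten poly(A) tails. Of 8 tested CAF1 genes, CAF1a alone was called, with 14.5, 13.3 and 12.8 CPM in WT and 33.9, 32.2 and 28.8 in gyf2 (1.23 ± 0.10, edgeR adjusted p = 1.02e-09). CAF1b, its closest relative, had 5.35, 4.30 and 4.94 CPM in WT and 7.75, 4.67 and 5.75 in gyf2 (0.33 ± 0.20, edgeR adjusted p = 0.491).

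Of 22 tested pattern receptor and early signalling genes, 6 were called higher and 0 lower, with a median of 0.11. The share called higher over all tested genes was 1.99%. MKK9, a MAP kinase kinase, had 26.1, 25.9 and 24.3 CPM in WT and 62.5, 51.4 and 58.2 in gyf2 (1.17 ± 0.10, edgeR adjusted p = 8.98e-10), and MPK3, a MAP kinase, had 81.5, 82.1 and 89.6 CPM in WT and 121.5, 111 and 112 in gyf2 (0.44 ± 0.06, edgeR adjusted p = 1.92e-05). RBOHD, the oxidase behind the immune burst of reactive oxygen, had 72.7, 84.3 and 87.8 CPM in WT and 117, 109 and 114 in gyf2 (0.47 ± 0.07, edgeR adjusted p = 8.72e-05). CPK28, a calcium-dependent kinase that promotes turnover of BIK1, had 33.5, 32.0 and 35.3 CPM in WT and 52.3, 43.3 and 44.9 in gyf2 (0.48 ± 0.08, edgeR adjusted p = 0.000129). BIK1 itself was called (0.33 ± 0.08, edgeR adjusted p = 0.00994), but the call was lost without WT replicate 3 or gyf2 replicate 2 (adjusted p up to 0.115). The flagellin receptor FLS2 (0.09), the elongation factor receptor EFR (0.11) and their co-receptor BAK1 (0.02) were not called.

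Early output genes of immunity had 6 of 15 tested members called higher and 0 lower, against 1.99% of all tested genes called higher. All 15 estimates were above 0 with a median of 0.52. PHI-1 had 7.18, 6.61 and 4.94 CPM in WT and 16.9, 12.6 and 12.4 in gyf2 (1.16 ± 0.14, edgeR adjusted p = 1.18e-06). MYB51, a regulator of indolic glucosinolates, had 15.2, 14.5 and 15.5 CPM in WT and 28.9, 22.4 and 26.9 in gyf2 (0.79 ± 0.10, edgeR adjusted p = 3.68e-06). PUB23 and PUB22, ubiquitin ligases that dampen immune signalling, rose by 0.72 and 0.59. SIB1 (0.54) and YLS9 (0.83) were called too. For SIB1 the call was lost without WT replicate 2 or 3 or gyf2 replicate 1, 2 or 3 (adjusted p up to 0.202) and for YLS9 the call was lost without WT replicate 1 or 2 or gyf2 replicate 2 or 3 (adjusted p up to 0.3). FRK1, a widely used marker of flagellin treatment, had 21.2, 16.3 and 19.96 CPM in WT and 14.3, 20.8 and 23.1 in gyf2 (0.01 ± 0.22, edgeR adjusted p = 0.988), and its libraries overlapped.

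The list of salicylic acid and systemic immunity genes gave 5 higher calls of 22 tested and 0 lower by edgeR. Over all tested genes 1.99% were called higher, and DESeq2 called 5 members higher and 1 lower. The 3 helper immune receptor genes of the ADR1 type were among the 5. ADR1-L2 had 38.6, 41.9 and 43.7 CPM in WT and 68.2, 64.8 and 70.4 in gyf2 (0.71 ± 0.07, edgeR adjusted p = 4.56e-08), ADR1-L1 had 69.8, 70.1 and 77.0 CPM in WT and 90.6, 96.4 and 108 in gyf2 (0.44 ± 0.08, edgeR adjusted p = 0.000362) and ADR1 had 21.5, 26.3 and 20.01 CPM in WT and 34.2, 31.2 and 30.4 in gyf2 (0.50 ± 0.09, edgeR adjusted p = 0.000471). NPR3, a salicylic acid receptor, had 21.4, 24.8 and 23.9 CPM in WT and 34.7, 34.7 and 39.1 in gyf2 (0.63 ± 0.09, edgeR adjusted p = 3.34e-05). The gyf2 and WT libraries of all 4 genes were separate. CBP60G, a regulator of salicylic acid synthesis, was called (0.51 ± 0.11, edgeR adjusted p = 0.0089), and the call was lost without WT replicate 1 or gyf2 replicate 1 or 3 (adjusted p up to 0.0628). The synthesis gene EDS16 (0.12), the regulators EDS1 (0.09) and PAD4 (−0.02) and the receptor NPR1 (0.09) were not called. PR1, the classical output, had 147, 30.0 and 46.8 CPM in WT and 31.0, 26.1 and 47.1 in gyf2. WT replicate 1 was far above every other library, and PR1 was not called (−1.11 ± 0.60, edgeR adjusted p = 0.462).

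Protein domains were counted after the calls were known. Of 135 tested genes with an NB-ARC domain, the core of intracellular immune receptors, 13 were called higher and 0 lower, and of 103 with a TIR domain 10 and 0. Among them, 5 TIR-domain genes lay within 1 stretch of chromosome 1, from AT1G72900 (start 27432178) to AT1G72950 (end 27445997). Their log2 fold changes were 0.78, 1.36, 1.07, 1.33 and 1.103 in order of position. AT1G72930 (listed as TIR), between them, was not called. These genes resemble each other, so reads may have been split among them. Domains with a high share called higher included PLATZ (4 of 10), the PDDEXK-like family (5 of 11) and the VQ motif (5 of 24), against 1.99% of all tested genes. RING-finger genes had 16 of 171 called higher and 0 lower. Protein kinase domains had 14 of 569 called higher (2.46%) and 1 lower, close to the share among all tested genes.

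Xyloglucan endotransglucosylases, which remodel the cell wall, had 3 of 28 tested members called higher (10.7%, against 1.99% of all tested genes), namely TCH4, XTR6 (0.69 ± 0.12, edgeR adjusted p = 0.000579) and XTH18 (0.34 ± 0.09, edgeR adjusted p = 0.0375), and for XTH18 the call was lost without WT replicate 1 or 2 or gyf2 replicate 1 or 2 (adjusted p up to 0.175). Of 12 calmodulin-like genes 2 were called higher (16.7%). TCH3 had 120.5, 100.7 and 111 CPM in WT and 211, 173 and 159 in gyf2 (0.71 ± 0.10, edgeR adjusted p = 7.5e-05) and CML38 had 4.69, 3.35 and 2.12 CPM in WT and 10.5, 8.15 and 6.19 in gyf2 (1.28 ± 0.26, edgeR adjusted p = 0.0082). TCH2, another touch gene, had 35.7, 30.6 and 32.4 CPM in WT and 57.4, 49.8 and 39.2 in gyf2 and was not called (0.57 ± 0.17, edgeR adjusted p = 0.128), although it was without gyf2 replicate 3 (0.71, edgeR adjusted p = 0.0201) and by DESeq2. Cysteine-rich receptor-like kinases had 2 of 37 tested members called higher, the neighbours CRK10 (0.47 ± 0.08, edgeR adjusted p = 0.000191) and CRK11 (0.50 ± 0.09, edgeR adjusted p = 0.000757). The annotated ends of CRK10 and CRK11 overlap on opposite strands, and whether reads were counted by strand is unknown.

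Among hypoxia genes 2 of 10 tested were called higher, against 1.99% of all tested genes. LBD41 had 20.9, 21.8 and 16.6 CPM in WT and 59.0, 65.4 and 58.2 in gyf2 (1.62 ± 0.10, edgeR adjusted p = 1.55e-11). AT3G10040, a trihelix transcription factor gene, had 6.43, 6.71 and 6.16 CPM in WT and 16.9, 18.7 and 20.1 in gyf2 (1.53 ± 0.11, edgeR adjusted p = 1.61e-11). Both are among the core transcripts that rise in low oxygen. The fermentation gene ADH1 had 28.5, 22.1 and 27.5 CPM in WT and 20.7, 16.0 and 19.3 in gyf2 and was not called (−0.48 ± 0.13, edgeR adjusted p = 0.0554), although it was called lower without WT replicate 2 (−0.58, edgeR adjusted p = 0.0187) and by DESeq2. AT4G33070, a pyruvate decarboxylase gene, was called lower without gyf2 replicate 3 alone of the 6 libraries (−0.63, edgeR adjusted p = 0.0211). ERF71 and ERF73 had log2 fold changes of 0.34 and −0.05.

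Both small families that follow were chosen after their values were seen. MYB subgroup 22 had 3 of 4 members called higher, against 1.99% of all tested genes. MYB73 had 27.03, 23.9 and 27.7 CPM in WT and 70.4, 61.3 and 58.4 in gyf2 (1.28 ± 0.08, edgeR adjusted p = 4.31e-12), MYB77 had 16.7, 13.8 and 16.7 CPM in WT and 42.5, 39.5 and 43.1 in gyf2 (1.41 ± 0.10, edgeR adjusted p = 3.4e-11) and MYBR1, also called MYB44, had 63.6, 65.7 and 60.4 CPM in WT and 75.9, 75.01 and 76.5 in gyf2 (0.26 ± 0.06, edgeR adjusted p = 0.0164). For MYBR1 the call was lost without WT replicate 3 or gyf2 replicate 1, 2 or 3 (adjusted p up to 0.0866). BTB and TAZ domain scaffold genes had 3 of 5 called higher. BT5 had 25.6, 22.6 and 22.1 CPM in WT and 73.3, 66.1 and 57.5 in gyf2 (1.49 ± 0.09, edgeR adjusted p = 1.67e-12) and BT2, linked to nutrient and hormone signals, had 72.3, 68.9 and 58.1 CPM in WT and 179, 164 and 139 in gyf2 (1.28 ± 0.09, edgeR adjusted p = 3.42e-10). BT1 was called (0.76 ± 0.15, edgeR adjusted p = 0.0163), though the call was lost without WT replicate 1 or 3 or gyf2 replicate 2 (adjusted p up to 0.105), and BT3 and BT4 were not called (−0.11 and 0.02).

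Phosphocholine synthesis genes gave the clearest pair of opposite calls. AT1G73600, annotated as a phosphoethanolamine N-methyltransferase, had 266, 183 and 234 CPM in WT and 584, 519 and 514 in gyf2 (1.24 ± 0.10, edgeR adjusted p = 3.8e-08). XPL1, an enzyme of the same kind, had 140.2, 192 and 145 CPM in WT and 94.0, 108 and 93.4 in gyf2 (−0.69 ± 0.11, edgeR adjusted p = 0.00036). Every gyf2 library was above all WT libraries for the first and below them for the second. The same loci had 548 to 598 CPM and 98.9 to 102 CPM in gyf1, and gyf2 was not called against gyf1 for either (edgeR adjusted p = 0.981 and 0.997). The third gene of the family, AT1G48600 (listed as PMEAMT), and the CTP-phosphocholine transferase genes CCT1 and AT4G15130 were not called against WT.

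**Figure D4:**
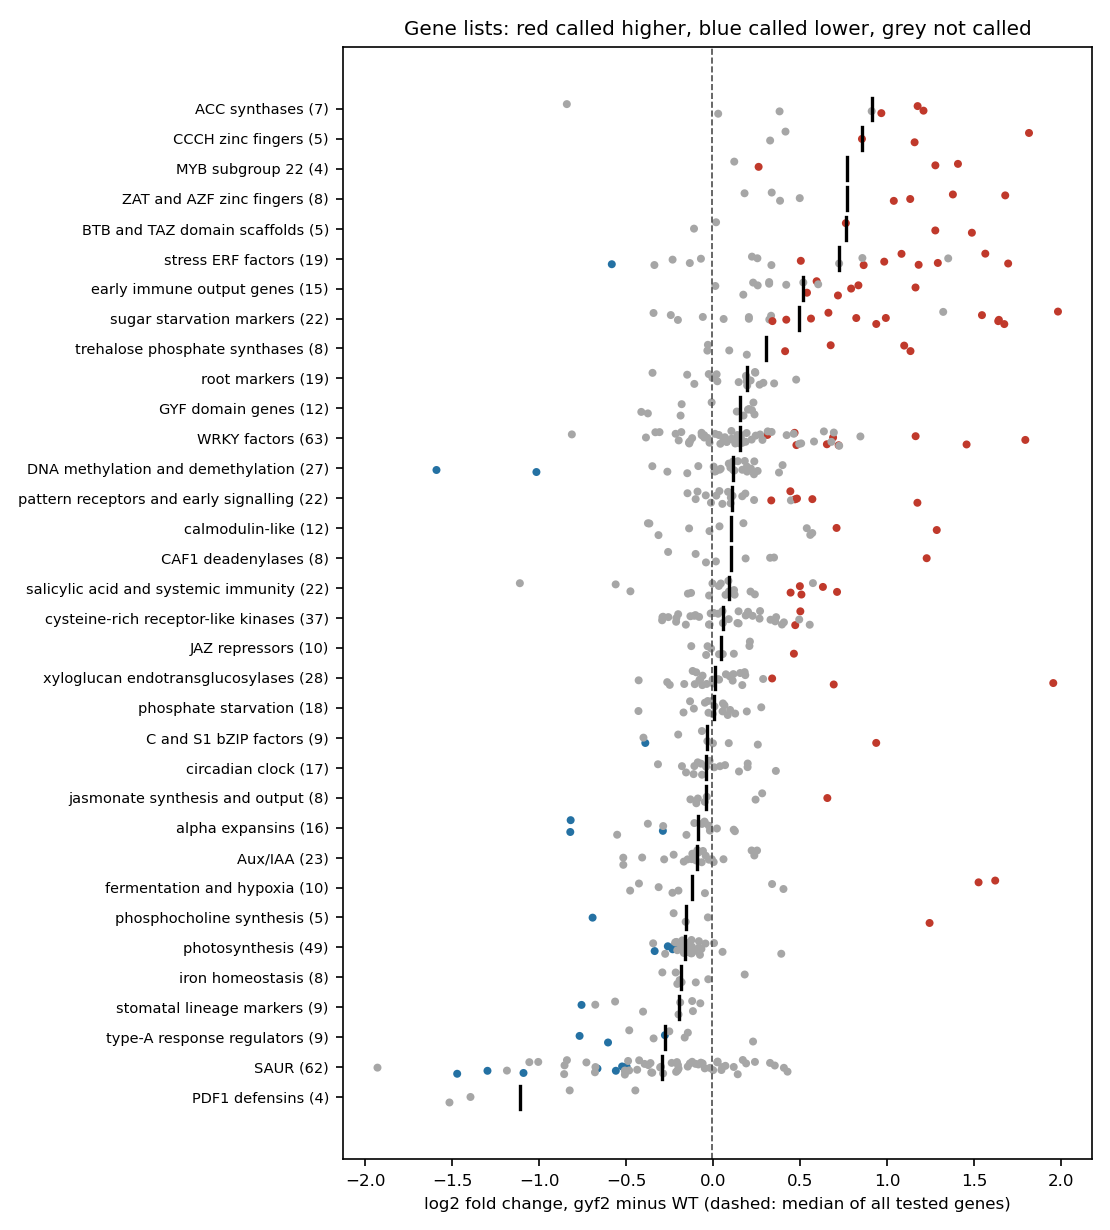
Log2 fold change (gyf2 minus WT, horizontal axis) of the tested members of each gene list, with the number tested in brackets. Red points were called higher, blue points lower and grey points not called, the short black line is the list's median and the dashed line the median of all tested genes (−0.01). Medians of the sugar starvation (0.49) and stress ERF (0.72) lists lie to the right. Those of the SAUR (−0.29), PDF1 defensin (−1.11) and fermentation and hypoxia (−0.12) lists lie to the left. The phosphate starvation median (0.00) lies near the dashed line.

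Falls were fewer than rises and mostly smaller. Only 107 genes (0.516% of those tested) were called lower, and of the 15 largest falls 7 were called in each of the 6 fits that left out 1 library. The 15 were taken from genes with a mean of at least 1 log2 CPM. EXPA10 and EXPA5, expansins that loosen cell walls, had 63.8, 67.7 and 65.7 CPM in WT and 36.5, 40.9 and 34.3 in gyf2 (−0.82 ± 0.08, edgeR adjusted p = 6.03e-09) and 33.6, 34.4 and 34.7 CPM in WT and 19.9, 17.4 and 20.8 in gyf2 (−0.82 ± 0.09, edgeR adjusted p = 1.19e-07). EXPA1, the most abundant of the called expansins, had 223, 215 and 211 CPM in WT and 197, 169 and 166 in gyf2 (−0.29 ± 0.07, edgeR adjusted p = 0.014), and the call was lost without WT replicate 1 or gyf2 replicate 2 or 3 (adjusted p up to 0.115). In all, 3 of 16 tested alpha expansins were called lower and 0 higher.

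SAUR genes, small auxin-induced growth genes, had 7 of 62 tested members called lower and 0 higher, against 0.516% of all tested genes called lower. Of the 62 estimates 48 were below 0, with a median of −0.29. AT4G38840 had 28.7, 30.8 and 28.9 CPM in WT and 16.7, 20.7 and 18.5 in gyf2 (−0.67 ± 0.10, edgeR adjusted p = 3.04e-05). SAUR20 had 3.38, 2.70 and 3.93 CPM in WT and 1.13, 1.14 and 1.33 in gyf2 (−1.47 ± 0.27, edgeR adjusted p = 0.00092), and its neighbour AT5G18030 had 4.97, 3.00 and 4.62 CPM in WT and 2.34, 1.56 and 1.97 in gyf2 (−1.09 ± 0.24, edgeR adjusted p = 0.00637). For AT5G18030 the call was lost without WT replicate 1 or gyf2 replicate 2 (adjusted p up to 0.0687). AT4G38860 had 23.9, 20.6 and 21.5 CPM in WT and 18.3, 14.7 and 12.8 in gyf2 (−0.52 ± 0.12, edgeR adjusted p = 0.00779), and the call was lost without WT replicate 1 or gyf2 replicate 2 or 3 (adjusted p up to 0.0903). The count of called SAUR genes was 2 without WT replicate 1, 3 without gyf2 replicate 2 and 3 without gyf2 replicate 3. Many SAUR genes are near copies of each other, and reads may have been split between them. Aux/IAA genes, the repressors of auxin signalling, gave 0 calls among 23 by edgeR, with 3 at an unadjusted p below 0.05 and 0 by DESeq2.

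Type-A response regulators, which dampen cytokinin signalling and were chosen after their values were seen, had 3 of 9 tested members called lower. The share called lower over all tested genes was 0.516%. RR16 had 16.1, 10.8 and 10.14 CPM in WT and 6.86, 7.89 and 7.13 in gyf2 (−0.77 ± 0.17, edgeR adjusted p = 0.00911), ARR7 had 22.8, 18.1 and 16.9 CPM in WT and 14.9, 11.5 and 11.5 in gyf2 (−0.60 ± 0.13, edgeR adjusted p = 0.00782) and ARR4 had 92.0, 84.9 and 85.8 CPM in WT and 70.9, 73.2 and 72.7 in gyf2 (−0.28 ± 0.07, edgeR adjusted p = 0.025). The gyf2 libraries of each lay below the WT libraries. WT replicate 1 was the highest library for all 3, and without it none was called. Without gyf2 replicate 1, 2 or 3 the count was 1.

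Photosynthesis genes gave small differences. Of 49 tested, 4 were called lower and 0 higher, against 0.516% of all tested genes called lower. Estimates were below 0 for 46 genes and the median was −0.16. LHCB6, an antenna protein of photosystem II, had 2428, 2123 and 2474 CPM in WT and 1965, 1835 and 1763 in gyf2 (−0.34 ± 0.08, edgeR adjusted p = 0.00931). PSBX had 1413, 1352 and 1401 CPM in WT and 1221, 1207 and 1129 in gyf2 (−0.23 ± 0.06, edgeR adjusted p = 0.0236), PSAE-1 had 517, 462 and 519.9 CPM in WT and 444, 414 and 393 in gyf2 (−0.26 ± 0.07, edgeR adjusted p = 0.0304) and PSBQA had 1669, 1562 and 1600.0 CPM in WT and 1373, 1400.3 and 1336 in gyf2 (−0.23 ± 0.06, edgeR adjusted p = 0.041). The fitted gyf2 level was 0.792, 0.854, 0.835 and 0.851 times that of WT. The count of called genes was 0 without WT replicate 1, 0 without WT replicate 3 and 0 without gyf2 replicate 2 or gyf2 replicate 3, so none of the 4 calls held across the libraries.

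EPF2, a peptide that limits the number of stomata, was the 1 member called lower of 9 stomatal lineage markers, against 0.516% of all tested genes. EPF2 had 6.76, 5.66 and 4.94 CPM in WT and 3.51, 3.22 and 3.54 in gyf2 (−0.76 ± 0.20, edgeR adjusted p = 0.0294), and the call was lost without WT replicate 1 or 2 or gyf2 replicate 1, 2 or 3 (adjusted p up to 0.204). All 9 estimates were below 0, with a median of −0.20. MUTE, another of the 9, had 3.57, 3.35 and 2.76 CPM in WT and 2.02, 1.92 and 2.11 in gyf2 (−0.68 ± 0.24, edgeR adjusted p = 0.164). The part played by cell composition was not tested. Of 19 tested root markers edgeR called 0, with 0 at an unadjusted p below 0.05 and 0 by DESeq2.

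Other large falls were AT1G66100, annotated as a thionin, with 15.6, 8.51 and 10.9 CPM in WT and 6.58, 4.57 and 5.90 in gyf2 (−1.03 ± 0.20, edgeR adjusted p = 0.00402), and the non-coding RNA AT1G58590, with 16.4, 12.2 and 12.0 CPM in WT and 7.71, 6.85 and 6.54 in gyf2 (−0.94 ± 0.15, edgeR adjusted p = 0.000158). Both separated the genotypes, although WT replicate 1 was the highest library for each. GIS, a trichome regulator (−0.91), BBX31 (−0.86), AT4G07820 (−0.84), AT3G09450 (−0.76) and AT2G15042 (−0.76) completed the 15, and each of these 5 lost its call in at least 4 of the 6 fits that left out 1 library.

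Genes of DNA methylation and demethylation gave 2 calls of 27 tested, both lower and both among the 15 largest falls. The share called lower over all tested genes was 0.516%. FDM1 encodes a double-stranded RNA-binding protein of RNA-directed DNA methylation. It lies on chromosome 1 from 5465251 to 5469180 and had 21.3, 23.8 and 23.4 CPM in WT and 8.84, 7.11 and 6.59 in gyf2 (−1.59 ± 0.12, edgeR adjusted p = 5.09e-11). DML1, also called ROS1, encodes a DNA glycosylase that removes methylcytosine, and its transcript is known to fall when RNA-directed DNA methylation is lost. It had 22.5, 25.6 and 26.8 CPM in WT and 14.7, 8.77 and 13.3 in gyf2 (−1.02 ± 0.12, edgeR adjusted p = 2.37e-06). Each gene was called in every fit that left out 1 library. Whether the fall of DML1 was linked to that of FDM1 was not tested, and methylation was not measured here. The gene that starts just after FDM1, AT1G15920, had 11.5, 11.8 and 13.1 CPM in WT and 10.9, 9.34 and 10.2 in gyf2 and was not called (−0.26 ± 0.11, edgeR adjusted p = 0.287).

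FDM1 and DML1 were low in gyf2 but not in the other mutants. FDM1 had 22.4 to 24.3 CPM in gyf1, 22.2 to 27.2 in gyf1 gyf2-1 and 22.7 to 28.6 in gyf1 gyf2-2. DML1 had 25.7 to 30.2, 35.5 to 36.3 and 28.3 to 31.1 CPM. No gyf2 library came near these ranges. The difference of gyf2 from gyf1 was −1.62, adjusted p = 1.76e-10, for FDM1 and −1.18, adjusted p = 5.81e-07, for DML1. From gyf1 gyf2-1 the differences were −1.71, adjusted p = 6.93e-11, and −1.54, adjusted p = 3.16e-09, and from gyf1 gyf2-2 they were −1.72, adjusted p = 3.21e-11, and −1.25, adjusted p = 4.09e-08.

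The largest fall of all was AT1G75945, a gene of unknown function on chromosome 1 (28515245 to 28515916). It had 136, 91 and 105 counts in WT and 2, 0 and 4 in gyf2. The log2 fold change of −5.79 ± 0.40 (edgeR adjusted p = 1.49e-11) depends in size on how such low counts are offset. Its level was 4.79 to 5.74 CPM in gyf1 and 3.77 to 5.16 in gyf1 gyf2-1, against 4.55 to 6.38 in WT. In gyf1 gyf2-2 it was 0.0516 to 0.32 CPM, as low as in gyf2. None of the 5 tested genes on each side of it was called, and the nearest, SKP1, had a log2 fold change of −0.10 ± 0.06. Low levels at this locus were thus seen in gyf2 and gyf1 gyf2-2.

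**Figure D5:**
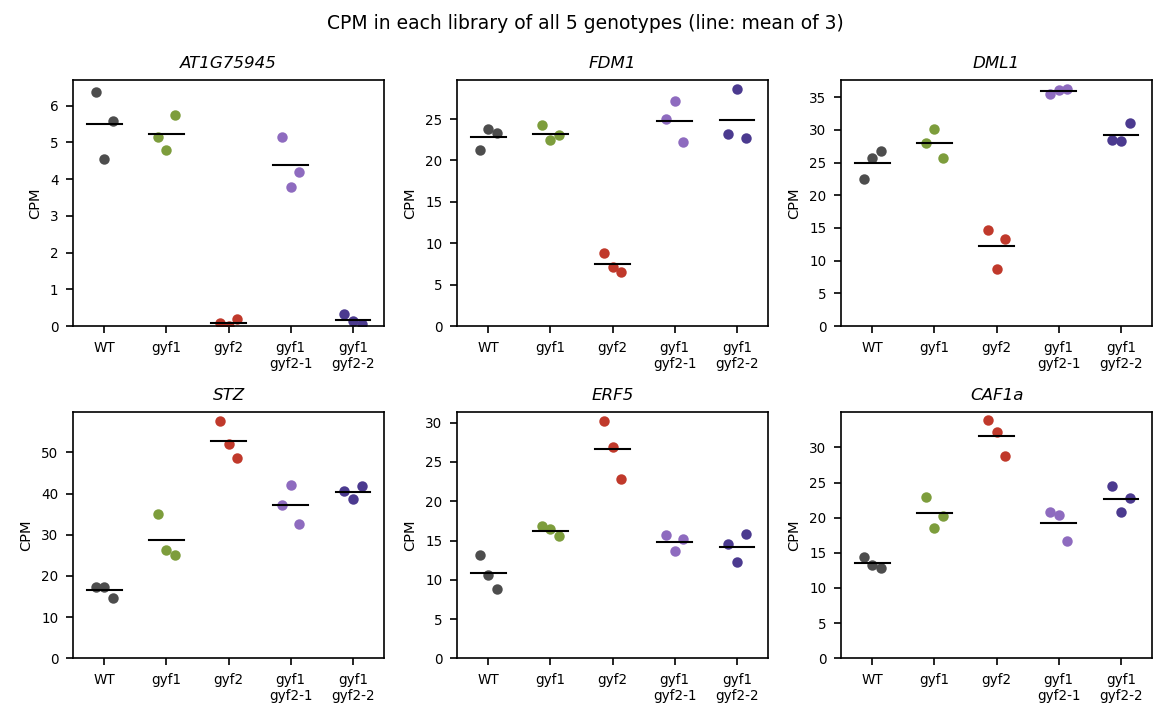
Level in CPM (vertical axes, from 0) of 6 genes in each library of the 5 genotypes, with a line at the mean of 3. AT1G75945 is near 0 in gyf2 and gyf1 gyf2-2, FDM1 and DML1 are low in gyf2 alone of the 5 genotypes, and STZ, ERF5 and CAF1a are highest in gyf2.

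Against gyf1, 199 genes (0.96% of those tested) were called in gyf2, 175 higher and 24 lower. This is a direct test between the single mutants, and without gyf2 replicate 1 it gave 124. HSPRO2 had 60.3 to 72.8 CPM in gyf1, and the log2 difference of gyf2 from gyf1 was called (1.08, adjusted p = 4.16e-08). SZF1 (0.93, adjusted p = 1.19e-09), TCH4 (1.17, adjusted p = 0.00222), WRKY40 (1.19, adjusted p = 2.94e-07) and DIC2 (1.19, adjusted p = 2.94e-07) were also called. The gyf1 libraries of these 5 genes lay between those of WT and gyf2. In the double mutants HSPRO2 reached 165 to 180 CPM in gyf1 gyf2-1 and 172 to 210 in gyf1 gyf2-2, above the gyf2 libraries.

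A smaller set was beyond every other genotype in gyf2, a rule applied after the values were seen. Of the genes called against WT, 7 were also called higher in gyf2 than in gyf1, gyf1 gyf2-1 and gyf1 gyf2-2, and 2 (FDM1 and DML1) lower. Background rates of these comparisons were 2.5%, 0.96%, 13% and 19.1% of tested genes called, in either direction. The 7 were STZ, ERF5, ERF104, ERF4, CAF1a, the ubiquitin ligase gene RDUF1 and the non-coding RNA AT1G06957. For AT1G06957 the call was lost without WT replicate 1 or 2 or gyf2 replicate 1, 2 or 3 (adjusted p up to 0.132), in the comparison with WT. ERF5 had 15.5 to 16.8 CPM in gyf1, 13.7 to 15.7 in gyf1 gyf2-1 and 12.3 to 15.8 in gyf1 gyf2-2, against 22.8 to 30.3 in gyf2. CAF1a had 18.6 to 23.0, 16.8 to 20.8 and 20.8 to 24.5 CPM in the same genotypes, against 28.8 to 33.9 in gyf2. Without gyf2 replicate 1 the higher set numbered 4.

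Called genes were spread over the 5 nuclear chromosomes, from 2.09% of tested genes on chromosome 3 to 3.07% on chromosome 4, and none of the 57 plastid or 21 mitochondrial genes tested was called. The share was highest in 3 windows of 1 Mb. On chromosome 1 between 12 and 13 Mb 5.74% of tested genes were called, 7 in number, among them ADR1, EPF2, PHI-1 and the neighbours AT1G33590, AT1G33600 and AT1G33610. On chromosome 2 between 16 and 17 Mb 12 of 227 were called, among them HSPRO2, WRKY33, CZF1, BIK1, ACR9 (0.49) and RR16. On chromosome 1 between 8 and 9 Mb 10 of 195 were called, all higher, including TPS9, AT1G25400 (1.39), AT1G23390 (1.06) and TEM1, a flowering repressor (0.92). Among neighbouring tested genes, 25 pairs were both called in one direction, 23 of them higher, and 2 pairs in opposite directions. Over all tested genes 1.99% were called higher and 0.516% lower, and the number of pairs to be expected was not computed. Some pairs, such as CRK10 with CRK11 and SAUR20 with AT5G18030, are related genes whose reads may not be counted apart.

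Lists without calls mark what did not pass the test. By edgeR 0 of 17 circadian clock genes were called, with 4 at an unadjusted p below 0.05 and 1 by DESeq2, and edgeR called 1 higher without WT replicate 1. For 18 phosphate starvation genes the numbers were 0, 2 and 0, and for 8 iron homeostasis genes 0, 2 and 0. Their median log2 fold changes were −0.04, 0.00 and −0.19. These counts do not show that the genes were equal in the 2 genotypes.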

How the data were processed

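Total RNA from whole seedlings of 5 genotypes, 3 libraries each, was made into strand-specific mRNA libraries, per the labels' protocols. Reads were aligned with HISAT2 2.0.4 to TAIR10 and counted with HTSeq 0.6.1p1, per the submitters' processing notes, and no source used here gives the strand setting. The deposited tables held raw counts per gene and the authors' FPKM values for 32833 genes.

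Samples were grouped by their titles. Counts were tested with edgeR 4.0.16 (R 4.3.3): filterByExpr kept 20721 genes, TMM scaled the libraries, and a quasi-likelihood fit over all 15 libraries and 5 groups gave each contrast, with Benjamini-Hochberg adjustment over all tested genes and a threshold of 0.05. A call is an adjusted p below it. CPM (counts per 1000000) use TMM library sizes. Alternatives were DESeq2 1.42.0, RLE scaling, no filter, a replicate block, the compared groups alone, limma 3.58.1 on log2(FPKM + 1), and each library left out. Scripts were tested on simulated data.

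Genes named were the 15 largest rises and falls among called genes with a mean of at least 1 log2 CPM and groups that did not overlap, the 4 called members of each list with the lowest adjusted p, all members of lists of at most 15 tested genes, GYF-domain genes, called genes of the 3 densest windows of 1 Mb, and the 5 neighbours on each side of the largest fall. Genes outside this rule were chosen after their values were seen. Members and lists were chosen with earlier results of these data known.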

Additional observations from a re-analysis of the deposited data

Results flagged for a closer look

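For 9 genes called in gyf2 against WT, the difference of gyf2 from each of the other mutants was itself called in the same direction, and it was tested in the same edgeR fit. The log2 difference of gyf2 from gyf1 was 0.87 for STZ (adjusted p = 2.25e-05), 0.71 for ERF5 (adjusted p = 0.000528), 0.67 for ERF104 (adjusted p = 0.00222) and 0.62 for CAF1a (adjusted p = 0.000311). It was 0.46 for ERF4 (adjusted p = 0.000276) and 0.46 for RDUF1 (adjusted p = 0.00455). FDM1 and DML1 were lower in gyf2 than in gyf1, by −1.62 (adjusted p = 1.76e-10) and −1.18 (adjusted p = 5.81e-07).

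The non-coding RNA AT1G06957 had 0, 0 and 1 counts in gyf1, 2, 11 and 6 in gyf1 gyf2-1 and 0 in gyf1 gyf2-2 as a whole. Its log2 difference of gyf2 from gyf1 gyf2-1 was 2.68 (edgeR adjusted p = 0.000194). Its mean level in gyf2, 2.36 CPM, was at least 45.9-fold higher than in gyf1 gyf2-2, with a floor of 3 counts over that group. Its call against WT was lost in 5 of the 6 fits that left out 1 WT or gyf2 library (edgeR adjusted p up to 0.132). The cause of these differences was not tested.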

How the results depend on the processing

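The count of genes called higher in gyf2 than in WT stayed within 1.5 times its value of 412 under every alternative run, from 300 to 509. The count called lower moved more, from 107 to 205 with the replicate block, 71 with only the libraries of the groups compared, and 49 to 93 when single WT or gyf2 libraries were left out. Without both WT replicate 1 and gyf2 replicate 3, an alternative chosen after seeing the data, it was 59. The count called in gyf2 against gyf1 was 199, and 124 to 221 with 1 library left out, the lowest without gyf2 replicate 1. Such fits also hold fewer samples, and the cause was not tested. Whether replicate numbers pair the samples is not known. Same-numbered WT and gyf2 libraries had deviations correlated at 0.132, −0.00967 and 0.118 across genes, and differently numbered ones at −0.187 to 0.0855. The replicate block called 714 genes in all, and a shared effect of replicate number was not tested further. Over the log2 fold changes of 233 named genes under 13 alternatives, 2801 results kept their status as called or not called, 192 lost the call, 32 gained it and 0 reversed. A change of sign was not counted as reversed where the gene was uncalled in both fits. Counts per list are not part of this tally. Calls were 71.3% higher with the block and 87.1% without gyf2 replicate 2, against 79.4%. With 3 libraries per genotype and a depth of 18913912 to 24681140 counts, small differences in genes of low counts could not be resolved.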

Other observations

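Some annotated domains were wider than the lists or outside them. Of 15 tested genes annotated with purine nucleobase transport 4 were called higher and 0 lower, and of 32 with a GRAS domain 4 and 0. The AP2, C2H2 and Myb-like counts that follow include the ethylene response factors, ZAT genes and MYB genes already described. Of 103 tested genes with an AP2 domain 14 were called higher and 4 lower, of 26 with a C2H2-type zinc finger 5 and 0, and of 170 with a Myb-like DNA-binding domain 11 and 1. These domains were counted after the calls were known, against 1.99% of all tested genes called higher and 0.516% lower.

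A few called genes were too low in counts to be named by the rule. The non-coding RNAs AT2G05695 and AT2G08735 had log2 fold changes of −4.85 and −4.62 (edgeR adjusted p = 0.00726 and 0.000225). AT2G32200 had the largest rise among all called genes, at 3.18.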
